A study of Mus musculus with 4 samples.

Results

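The EGF family ligands amphiregulin (Areg), heparin-binding EGF-like growth factor (Hbegf), betacellulin (Btc) and transforming growth factor alpha (Tgfa), the receptor genes Egfr, Erbb2 and Erbb3, and the receptor inhibitor gene Errfi1 were followed across the 4 libraries of this series. These 8 genes were picked by symbol out of 23235 measured symbols, with their values in these libraries already in view, so their levels and differences are a description without a test. RNA was sequenced from isolated pancreatic islets of C57BL/6 mice, wild type (WT) or KR mutant (zygosity not given in the sources used here), in 4 groups called WT fasted, KR fasted, WT refed and KR refed. KR mice carry a FoxO1 allele whose acetylation sites, lysines in the normal protein, were changed to arginine, as known from the study, which addresses the role of FoxO1 acetylation in beta-cell fuel use and insulin release. FoxO1 is a transcription factor that insulin signalling keeps out of the nucleus. Every group was fasted, for 48 h by the sample titles and for 24 h by the extraction protocol, and the refed groups then had 6 h of food. The sources used here give no age or sex. RNA came from the combined islets of 3 mice of a genotype and each group holds 1 library, so no difference between libraries has a replicate check.

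EGF family ligands are made as membrane-anchored precursors, and metalloproteases of the ADAM family release them. Areg and Tgfa bind the EGF receptor, Hbegf and Btc bind it and also ErbB4, and the receptors signal as dimers into the RAS-ERK cascade. ErbB2 has no known ligand of its own and ErbB3 has little kinase activity, so both work mainly as dimer partners. Errfi1 (Mig6) is induced by receptor signalling and blocks the kinase domain of the active receptor. In islets, EGF receptor signalling is known for its part in beta-cell growth.

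Values are FPKM, fragment counts scaled by transcript length and by library size, so levels can be compared between genes, and each comes with a lower and an upper bound in the deposited tables. As implied by those bounds, the genes with a usable value in the WT fasted library summed to 26407138 fragments. Depth relative to WT fasted was taken from implied fragments per FPKM, as the median ratio over 7986 genes. On this measure KR fasted was 1.01 times as deep, and the refed libraries were shallower, at 0.683 times for WT and 0.418 times for KR. Bounds and the intervals derived from them cover counting error only and say nothing of variation between mice. The islet label was checked against marker genes. All 8 beta-cell markers with a value in every library were at an FPKM of 1 or more in each, with a summed FPKM of 40481 to 80669, and the 6 markers of alpha, delta and PP cells summed to 33291 to 41930. Of 11 acinar markers 7 or 8 lay under an FPKM of 1 in each library, and the duct markers Cftr and Sox9 lay under 1 throughout, whereas Krt7 was at 413 to 521. Gene identity and coordinates below are on mouse build mm9 as deposited, counted from 1.

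The upstream sequences of Areg and Errfi1 are shown because these were the members whose bounds separated the fasted from the refed library in both genotypes. That of Btc is shown because it lies near Areg on the same chromosome and did not differ in this way. RefSeq promoter windows of build GRCm38.p6 were matched by symbol for 6 of the 8 members, namely Areg, Btc, Tgfa, Egfr, Erbb2 and Errfi1. The 250 bases before the annotated start are printed, 5′ to 3′ on the strand of the gene, and capitals mark the full cAMP response element TGACGTCA, a palindrome bound by factors of the CREB and ATF families.
Areg, chr5:91139349-91139598, plus strand: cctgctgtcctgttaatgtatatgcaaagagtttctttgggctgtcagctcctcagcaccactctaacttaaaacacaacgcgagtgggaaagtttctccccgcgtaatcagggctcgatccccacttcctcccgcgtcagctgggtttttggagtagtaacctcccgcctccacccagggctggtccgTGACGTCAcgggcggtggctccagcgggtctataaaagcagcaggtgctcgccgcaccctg
Errfi1, second of 2 annotated starts, chr4:150854820-150855069, plus strand: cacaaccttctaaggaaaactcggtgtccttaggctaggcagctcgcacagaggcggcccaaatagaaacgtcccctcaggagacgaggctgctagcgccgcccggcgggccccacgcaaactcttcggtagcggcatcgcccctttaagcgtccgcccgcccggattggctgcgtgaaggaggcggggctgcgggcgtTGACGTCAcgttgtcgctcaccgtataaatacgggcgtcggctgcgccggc
Btc, chr5:91402995-91403244, minus strand: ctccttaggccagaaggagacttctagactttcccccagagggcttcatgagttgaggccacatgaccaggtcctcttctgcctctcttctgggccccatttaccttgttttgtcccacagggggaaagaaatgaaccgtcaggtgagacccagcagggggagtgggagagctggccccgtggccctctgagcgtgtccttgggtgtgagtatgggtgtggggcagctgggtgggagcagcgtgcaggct
The element begins 61 bases before the Areg start and 51 bases before the second Errfi1 start. It was found in 2 of the 7 windows of these 6 genes and in 1.55% of all 32851 RefSeq windows of the same length. The first Errfi1 window and those of Btc, Tgfa, Egfr and Erbb2 held no match to these letters. Of the 2 Errfi1 windows, the printed one is thus the one with the element. The shorter half-site TGACG, which the full element contains on both strands, was present in 17.8% of all windows, among them those of Areg, Btc, Erbb2 and the second Errfi1 start. None of the 7 windows held the AP-1 motif TGANTCA, the FoxO motif GTAAACA, the ATF4 composite motif TGATGNAA or the E-box CACGTG, searched on both strands, which were found in 6.75%, 3.17%, 3.45% and 6.02% of all windows. The motifs were chosen after the values of these genes were seen, and a match is not evidence of binding.

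**Figure D1:**
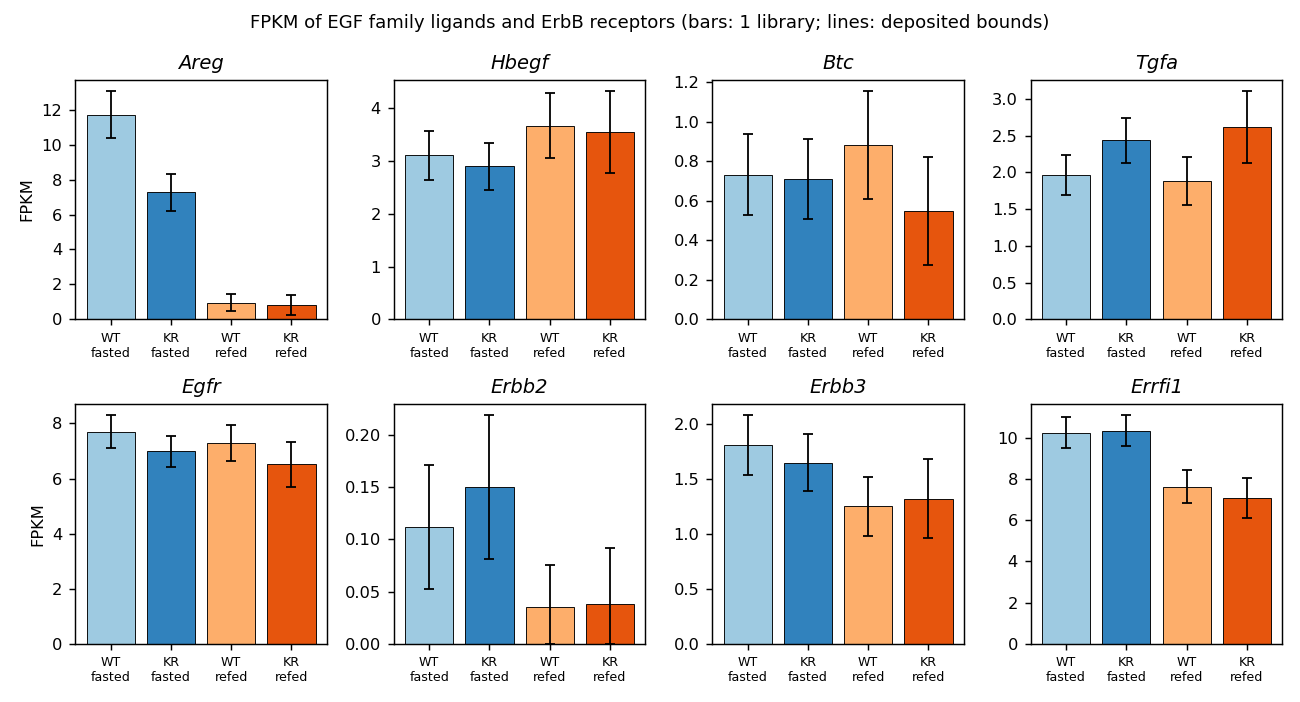
FPKM (vertical axis, from 0, with its own scale in each panel) of the 8 genes in the 4 libraries; each bar is 1 library and the lines are the deposited lower and upper bounds. The Areg bars drop from 11.7 and 7.27 in the fasted libraries to 0.963 and 0.833 in the refed ones, whereas the Egfr bars lie between 6.51 and 7.69.

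Among the ligands, Areg (chromosome 5, 91568641 to 91577458) set the pattern apart. Its FPKM was 11.7 in WT fasted (bounds 10.4 to 13.1), 7.27 in KR fasted (6.21 to 8.32), 0.963 in WT refed (0.496 to 1.43) and 0.833 in KR refed (0.278 to 1.39). Both fasted libraries were high and both refed libraries low, with no overlap of bounds between feeding states, and within the fasted state the bounds of WT lay above those of KR. These levels rest on 303, 190, 17 and 9 implied fragments in the same order.

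The refed level of Areg was 12.2-fold lower than the fasted one in WT, with an exact counting interval of 7.47 to 21.2, and 8.73-fold lower in KR, with an interval of 4.50 to 19.4. On the log2(FPKM + 1) scale, which compresses the change of low genes and is used for all genes together, these differences were -2.70 and -2.17. A log2 difference of at least 1 in size is called 2-fold here, and the comparison took in the 11953 genes whose FPKM averaged 1 or more across the 4 libraries. Of these, 2.4% were at least 2-fold lower after refeeding in WT, 1.75% in KR and 1.43% in both. Areg held the 11th lowest place of the 11953 in WT and the 21st lowest in KR. It was the single member past 2-fold on this scale in any of the 4 comparisons. In bulk islets, fewer cells of a type that makes a transcript and less of it per cell cannot be told apart.

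KR islets had less Areg than WT islets in the fasted state, by 1.61-fold (interval 1.34 to 1.94), a log2 difference of -0.62 and the 48th lowest of 11953. Bounds that do not overlap, with the lower value in KR, were found for 15.5% of genes in that comparison, whereas 0.109% of genes were at least 2-fold lower. In the refed state the KR and WT levels of Areg had overlapping bounds, with a log2 difference of -0.10 (interval -0.64 to 0.45). At 17 and 9 fragments a difference of the fasted size was not detectable there. The refeeding difference was 0.52 less negative in KR than in WT on the log2 scale (interval -0.07 to 1.12), a value above the -0.45 to 0.40 that held the middle 95% of all genes. The counting interval includes 0, and no test of this difference was made.

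Most markers of endothelial cells, macrophages and fibroblasts were also lower in the refed libraries. The summed FPKM of 9 endothelial markers, none of which was at 0, was 32.5 in WT fasted, 23.6 in KR fasted, 21.6 in WT refed and 19.0 in KR refed, the same order as Areg. Of these markers 8 were lower after refeeding in both genotypes, among them Cdh5, the VE-cadherin gene, at 2.82 and 0.816 in WT and 1.78 and 0.630 in KR, and Tie1 at 1.07 and 0.305 in WT and 0.515 and 0.324 in KR. The most abundant of them in both refed libraries, Esam, was higher, at 8.26 and 9.84 in WT and 7.75 and 9.35 in KR. The sum of 8 macrophage markers was 260, 253, 206 and 189 in WT fasted, KR fasted, WT refed and KR refed, with 7 markers lower after refeeding in both genotypes. For 10 stellate cell and fibroblast markers the sums were 41.9, 42.7, 27.6 and 35.97, with 7 lower in both genotypes, among them the collagen gene Col1a1 at 4.80 and 1.46 in WT and 4.58 and 1.69 in KR. Of these 10 markers 1 was higher after refeeding in WT and 3 in KR. The highest log2 difference among the 8 with a mean FPKM of at least 1 was 0.50 in WT and 0.86 in KR. The sums of 8 duct markers were higher after refeeding, at 550, 526, 665 and 603, but most of each sum was Krt7, at 430, 413, 521 and 464. Of the 8 duct markers 3 were lower and 5 higher after refeeding in WT, and 1 was lower and 6 higher in KR. The sums of 11 acinar markers were also higher, at 60.1, 69.1, 64.5 and 75.996, but the single acinar markers were mixed. In WT 3 of them were lower and 4 higher after refeeding, and in KR 4 were lower and 5 higher. Cela1 was higher, at 35.0 and 47.3 in WT and 39.7 and 57.4 in KR. Bhlha15 was lower, at 21.8 and 9.79 in WT and 24.4 and 11.1 in KR. These markers were named after their values were seen. The part of these cells in the Areg difference was not tested.

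Hbegf (chromosome 18, 36664581 to 36675459) kept a nearly even level. Its FPKM was 3.11 in WT fasted, 2.90 in KR fasted, 3.67 in WT refed and 3.55 in KR refed. Both refed libraries were above both fasted ones, with overlapping bounds throughout, and the refeeding difference was a log2 of 0.19 in WT (interval -0.06 to 0.43) and 0.22 in KR (-0.07 to 0.51). All of these intervals include 0, and they lie far above the refeeding differences of Areg.

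Tgfa (chromosome 6, 86145245 to 86225443) had an FPKM of 1.96 in WT fasted, 2.44 in KR fasted, 1.88 in WT refed and 2.62 in KR refed. Both KR libraries were above both WT libraries. KR exceeded WT by 1.24-fold when fasted (exact counting interval 1.03 to 1.5) and by 1.39-fold in the refed state (1.08 to 1.8), although the deposited bounds of each pair overlapped. These log2 differences of 0.22 and 0.33 were the 796th and 340th highest of 11953. The refeeding difference of Tgfa was -0.04 in WT and 0.07 in KR on the log2 scale, both intervals including 0. Marker sums of other cells also differed between genotypes. The summed FPKM of 5 lymphocyte markers was 9.31 and 9.67 in the WT fasted and refed libraries, where Cd79b, Cd3e and Cd3g were at 0, and 21.9 and 15.2 in those of KR. The 8 beta-cell markers summed to 40481 and 57441 in WT and to 55112 and 80669 in KR. Most of this sum was the hormone transcript Iapp, at 35463 and 52784 in WT and 46126 and 66975 in KR. By bounds apart, 8 of the 8 were higher in KR when fasted and 5 when refed, beside 7.47% and 3.51% of all genes. Nkx6-1 was lower in KR in the refed pair, at 85.5 in WT and 79.0 in KR. The part of lymphocytes or beta cells in the Tgfa difference was not tested.

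Btc (chromosome 5, 91786287 to 91832020) was the weakest ligand among the members, at 0.731 in WT fasted, 0.709 in KR fasted, 0.882 in WT refed and 0.549 in KR refed. Its bounds overlapped in all 4 comparisons. With a mean FPKM under 1 it was not among the 11953 genes compared, and its lowest level rests on 16 fragments.

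Areg and Btc belong to a run of ligand genes on chromosome 5 that also holds epigen (Epgn) and epiregulin (Ereg), from 91456543 to 91832020. Epgn was listed at 0 in all 4 libraries, and Ereg at 0 in 3 and at 0.0143 in WT refed. An FPKM above 1 was thus reached in this run by Areg in the fasted libraries and by no other of these ligand genes in any library.

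The ligands that bind the EGF receptor can be summed per length as Areg, Hbegf, Btc, Tgfa, Egf, Ereg and Epgn. Areg made up 57.4% of this sum in WT fasted, 44.8% in KR fasted, 8.81% in WT refed and 7.69% in KR refed. The other 6 together had an FPKM of 8.70, 8.96, 9.96 and 9.99 in the same order. The sum of the 7 therefore differed between feeding states mainly through Areg, with 20.4 fasted and 10.9 refed in WT, and 16.2 fasted and 10.8 refed in KR.

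**Figure D2:**
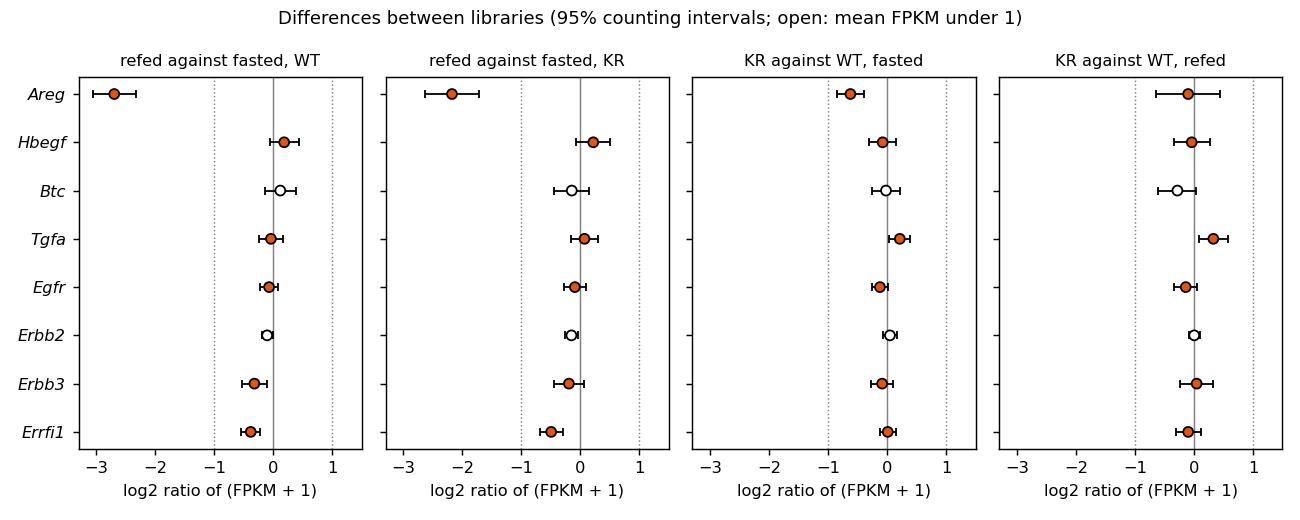
Log2 ratios of (FPKM + 1) (horizontal axis) for the 8 genes in the 4 comparisons; points are differences between 2 libraries, lines are 95% counting intervals, open points are genes with a mean FPKM under 1, and dotted lines mark 2-fold. Areg lies at -2.70 and -2.17 in the refeeding comparisons and every other point lies inside the dotted lines.

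Among the receptors, Egfr (chromosome 11, 16652206 to 16813910) was the most abundant in every library. Its FPKM was 7.69 in WT fasted (bounds 7.10 to 8.29), 6.99 in KR fasted (6.43 to 7.56), 7.28 in WT refed (6.62 to 7.94) and 6.51 in KR refed (5.69 to 7.33). The bounds of all pairs compared overlapped. The log2 refeeding difference was -0.07 in WT (interval -0.22 to 0.08) and -0.09 in KR (-0.27 to 0.09), so a fall of the size seen in Areg lies far outside these intervals.

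Erbb3 (chromosome 10, 128006424 to 128026557) stood at 1.81 in WT fasted (bounds 1.54 to 2.08), 1.65 in KR fasted (1.39 to 1.90), 1.25 in WT refed (0.978 to 1.52) and 1.32 in KR refed (0.964 to 1.68). Both refed libraries were below both fasted ones, and the bounds separated the feeding states in WT but not in KR. The refeeding differences were -0.32 (interval -0.54 to -0.10) and -0.19 (-0.45 to 0.07) on the log2 scale, and bounds that do not overlap with the lower value after refeeding were found for 30.9% of all genes in WT and 29% in KR. The FPKM of Erbb3 was 17.2% to 23.6% of that of Egfr in the 4 libraries. Schwann cells are known to express Erbb3. The summed FPKM of 8 glial markers was 11.0 in WT fasted, 8.91 in KR fasted, 7.40 in WT refed and 8.80 in KR refed. Sox10 was under 1 in each. After refeeding 6 of these markers were lower and 2 higher in WT, whereas 2 were lower and 6 higher in KR. The part of Schwann cells in the Erbb3 level was not tested.

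Erbb2 (chromosome 11, 98273798 to 98299030) was close to the limit of these libraries, at 0.112 in WT fasted, 0.150 in KR fasted, 0.0351 in WT refed and 0.0382 in KR refed. The refed values rest on 3 and 2 fragments and the fasted ones on 14 and 19. Refed WT was 0.314 times WT fasted with an exact counting interval of 0.0578 to 1.12, and KR refed was 0.255 times KR fasted with an interval of 0.0288 to 1.06. Both of these intervals include 1. On the log2(FPKM + 1) scale the differences were -0.10 (interval -0.20 to -0.0091) in WT and -0.15 (-0.26 to -0.04) in KR, intervals that exclude 0 but rest on a normal approximation, which is poor at 2 or 3 fragments. Erbb4 was listed at 0 in 3 libraries and at 0.0226 in KR refed.

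Errfi1 (chromosome 4, 150229200 to 150242989), the feedback inhibitor of the receptor, had an FPKM of 10.3 in WT fasted (bounds 9.51 to 11.0), 10.3 in KR fasted (9.60 to 11.1), 7.64 in WT refed (6.86 to 8.42) and 7.07 in KR refed (6.11 to 8.03). Both refed libraries were below both fasted libraries with no overlap of bounds, and the genotypes overlapped within each feeding state. The refed level was 1.34-fold lower in WT (exact counting interval 1.19 to 1.52) and 1.46-fold lower in KR (1.26 to 1.71), log2 differences of -0.38 and -0.49. Lower values after refeeding with bounds apart in both genotypes were found for 24.7% of all 11953 genes, so Errfi1 and Areg share this with a large part of the transcriptome.

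Of the 8 members, 6 passed the minimum mean FPKM of 1, and Btc and Erbb2 did not. Among these 6 the bounds did not overlap between feeding states for 3 genes in WT, all lower after refeeding, against 61.1% of all genes in either direction, and for 2 genes in KR against 52.1%. Their median log2 ratio after refeeding was -0.19 in WT and -0.14 in KR, beside medians of 0.0042 and -0.02 over all genes. Between genotypes 0 of the 6 were at least 2-fold apart in either feeding state, against 0.243% of all genes for fasted and 0.368% for refed islets, and the bounds separated 1 member, Areg, in the fasted pair (22.9% of all genes) and 0 in the refed pair (15.3%). The order of levels in WT fasted was Areg, Errfi1, Egfr, Hbegf, Tgfa, Erbb3, Btc and Erbb2, where the bounds of Areg and Errfi1 overlapped, as did those of Tgfa and Erbb3. In KR fasted the order was Errfi1, Areg, Egfr, Hbegf, Tgfa, Erbb3, Btc and Erbb2. There the bounds of Errfi1 lay above those of Areg, whereas Areg overlapped Egfr and Hbegf overlapped Tgfa. In both refed libraries the order was Errfi1, Egfr, Hbegf, Tgfa, Erbb3, Areg, Btc and Erbb2, with Areg overlapping Erbb3 above it and Btc below it.

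**Figure D3:**
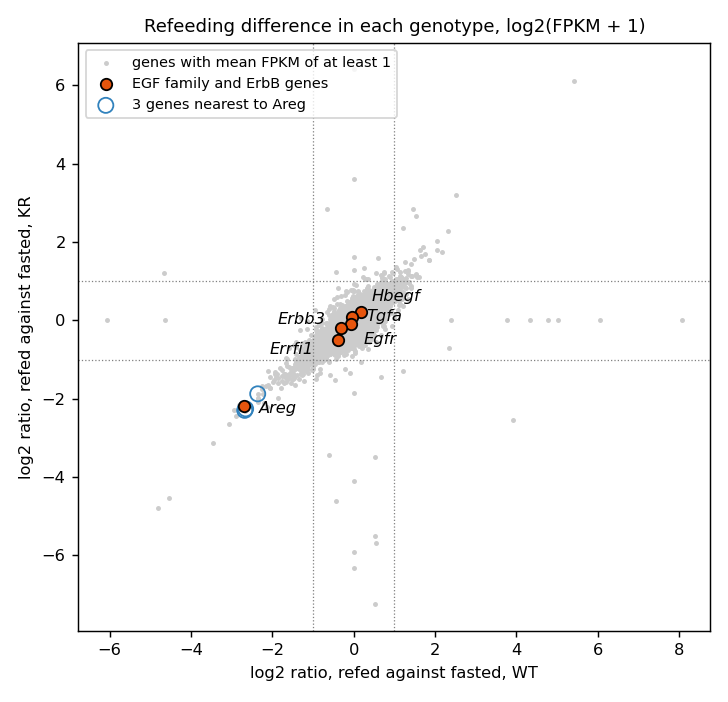
Log2 ratio of refed against fasted islets in WT (horizontal) and in KR (vertical) for 11953 genes in grey, with the 6 members that passed the filter in orange and the 3 genes nearest to Areg circled in blue; dotted lines mark 2-fold. Areg lies at -2.70 and -2.17, and the other 5 members lie between -0.49 and 0.22 on both axes.

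The genes whose pattern over the 4 libraries came nearest to that of Areg were found by the Euclidean distance between log2 values centred on their own mean. The search took in 8589 other genes with an OK status in every library and an FPKM that averaged 5 or more. Symbols starting with Mir, Snor, LOC or Gm plus digits, and symbols ending in Rik, were left out of it. Steap1 was the nearest at a distance of 0.15, with an FPKM of 59.6 in WT fasted, 44.1 in KR fasted, 8.46 in WT refed and 8.19 in KR refed. Akna, an AT-hook protein gene, followed at a distance of 0.28, with 13.1, 10.5, 1.23 and 1.41. Myc, a growth-promoting transcription factor gene, was the third at 0.34, with 26.4, 18.6, 4.35 and 4.35. In all 3 the KR fasted library was below the WT fasted library, by -0.42, -0.29 and -0.48 on the log2 scale, beside -0.62 for Areg. These 3 genes were picked for their nearness to Areg over these same 4 libraries. Their agreement in the fasted pair is thus partly built into the choice and is not independent of it. A likeness over 4 libraries is a description of these libraries.

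The other genes of the family were few and even. Of the 8 further ligand and receptor genes Egf, Ereg, Epgn, Nrg1, Nrg2, Nrg3, Nrg4 and Erbb4, only Egf passed the minimum, at 2.90 in WT fasted, 2.92 in KR fasted, 3.51 in WT refed and 3.28 in KR refed, with overlapping bounds. The neuregulin gene Nrg4 reached at most 0.509, and the others stayed at 0.115 or less. Of 10 genes for shedding the ligands 8 passed the minimum, and 0 were 2-fold apart in any comparison. Of all genes, 2.4% were at least 2-fold lower and 1.11% higher after refeeding in WT, and 1.75% and 0.577% in KR. Between genotypes 0.243% were 2-fold apart when fasted and 0.368% when refed. By bounds apart 4 of the 8 were lower and 1 higher after refeeding in WT, and 3 and 0 in KR. The shares of all genes were 30.9% and 30.2% in WT, and 29% and 23.1% in KR. Adam9, the most abundant of these protease genes by the mean of the 4 libraries, was at 29.4 in WT fasted, 28.3 in KR fasted, 25.6 in WT refed and 23.3 in KR refed. Its bounds did not overlap between feeding states in either genotype. Adam17, which cleaves the precursors of Areg, Hbegf and Tgfa, was at 10.4, 9.73, 9.95 and 8.76, with overlapping bounds between feeding states.

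Of 22 genes for receptor adaptors and the RAS-ERK cascade 21 passed the minimum. Bounds did not overlap between feeding states for 12 that were lower and 3 that were higher after refeeding in WT, and for 15 and 1 in KR, beside 30.9% lower and 30.2% higher of all genes in WT and 29% and 23.1% in KR. The median log2 ratio was -0.27 in WT and -0.28 in KR. The scaffold gene Gab2 was the single one past 2-fold, at 10.5 in WT fasted and 3.80 in WT refed, a log2 difference of -1.26 (interval -1.40 to -1.13), with 8.64 and 4.17 in KR, a difference of -0.90. Of all genes, 2.4% were at least 2-fold lower after refeeding in WT and 1.75% in KR. Mapk3, which encodes ERK1, was the most abundant of the list, at 155 in WT fasted, 162 in KR fasted, 170 in WT refed and 151 in KR refed.

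Of 19 genes for receptor attenuation and sorting 18 passed the minimum, with 8 lower and 2 higher after refeeding by bounds apart in WT, and 7 and 1 in KR, beside 30.9% lower and 30.2% higher of all genes in WT and 29% and 23.1% in KR. The receptor phosphatase gene Ptprj alone was past 2-fold, and in both genotypes, at 26.5 fasted and 10.7 refed in WT and at 26.2 fasted and 11.5 refed in KR, log2 differences of -1.24 and -1.12, where 2.4% of all genes were at least 2-fold lower in WT and 1.75% in KR. Usp8, a deubiquitinase gene of endosomal sorting and the most abundant of the list by the mean of the 4 libraries, was at 35.1 in WT fasted, 34.3 in KR fasted, 45.0 in WT refed and 41.5 in KR refed.

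Genes known to respond to ERK signalling differed in both directions, with more of them lower than higher after refeeding. Of 23 listed 17 passed the minimum. By bounds apart 9 were lower and 1 higher after refeeding in WT, and 6 and 2 in KR. The shares of all genes were 30.9% and 30.2% in WT, and 29% and 23.1% in KR. The median log2 ratio was -0.54 in WT and -0.28 in KR. At least 2-fold lower after refeeding were 3 in WT and 4 in KR, and at least 2-fold higher were 1 and 2. Of all genes, 2.4% were at least 2-fold lower and 1.11% higher in WT, and 1.75% and 0.577% in KR. Lower in both genotypes were Myc, Dusp4, an ERK phosphatase gene, at 11.9 fasted and 2.00 refed in WT and 7.39 and 2.39 in KR, and Spry2, a feedback inhibitor gene, at 8.76 and 3.25 in WT and 6.31 and 2.44 in KR. Ier3 was past 2-fold in KR alone, from 9.11 to 3.95, beside 8.69 to 5.41 in WT. Egr1, an immediate early transcription factor gene, was higher after refeeding, at 1.30 fasted and 4.34 refed in WT and 1.31 and 10.8 in KR, and was the single gene of these lists past 2-fold between genotypes, at a log2 difference of 1.14 in the refed pair, where 0.167% of all genes were at least 2-fold higher in KR. Fos stood at 0.751 fasted and 1.10 refed in WT, and at 0.502 and 2.82 in KR, where it was past 2-fold. The list was assembled with results of these data known, so its counts are not independent evidence of a direction.

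**Figure D4:**
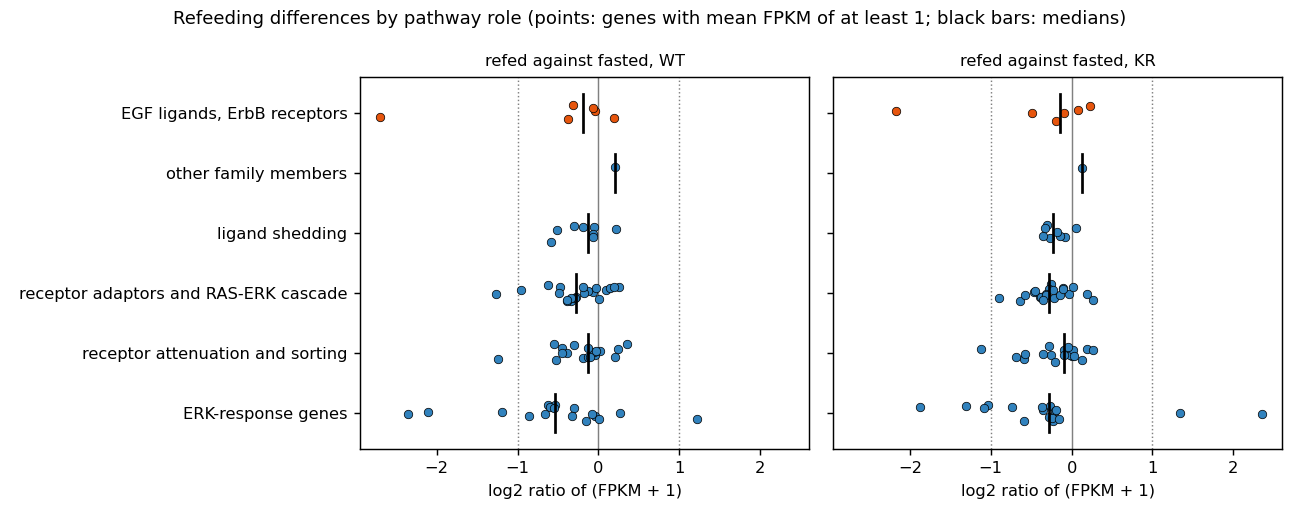
Log2 ratio of refed against fasted islets (horizontal axis) in WT (left) and KR (right) for genes of each role whose FPKM averaged 1 or more; points are genes, black bars are medians and dotted lines mark 2-fold. Areg at -2.70 and -2.17 stands to the left of its own row, and Egr1 at 1.22 and 2.35 is the rightmost point of the ERK-response row.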

How the data were processed

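Poly-A RNA of pooled islets was prepared with an Illumina TruSeq kit, per the labels' protocols. The submitters' processing notes name bcl2fastq 1.8.4, TopHat2 2.0.4 and build mm9. The authors deposited FPKM with bounds and a status, per the file headers. The sources used here name neither the quantification program nor its annotation or scaling total. Rows with the same symbol were summed, and 189 symbols with a status other than OK in at least 1 library, Ins2 among them, were not compared.

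The standard error was 0.5 times the distance from the FPKM to its upper bound, and the squared ratio of FPKM to this error gave implied fragments, within 0.05 of a whole number for 73.9% to 74.7% of genes with under 100. Libraries were compared on log2(FPKM + 1) with 95% counting intervals, and linear folds have exact Clopper-Pearson intervals. With 1 library per group no p-value is given, and no joint model was fitted, since it would count the interaction of feeding and genotype as error. Members and gene lists were chosen with earlier results of these data known. Named are the members, list genes at least 2-fold apart (at most 6 a list), the most abundant of each list and the 3 patterns nearest to each member past 2-fold. Other genes were named after their values were seen. Of the lymphocyte markers 1 is not reported here. Starts were raised by 1, since 670 of 703 small RNA genes had their RefSeq length as end minus start. The code was tested on simulated data for refeeding in WT with 11927 genes, where 88% of 50 genes lowered by 2 on the log2 scale passed 2-fold. Python 3.11.15, NumPy 2.4.6, pandas 2.3.3 and SciPy 1.17.1 were used. Alternatives were a pseudocount of 0.1, no minimum or a minimum of 5 FPKM, median-of-ratios scaling and a 1.5-fold limit.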

Additional observations from a re-analysis of the deposited data

Results flagged for a closer look

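For 4 genes the direction of a difference was opposite in the groups set side by side, and none of these differences was tested. Tgfa after refeeding was lower in WT and higher in KR, and the log2 differences were 0.11 apart (KR minus WT, counting interval -0.19 to 0.42). Btc after refeeding was higher in WT and lower in KR, and the KR minus WT value was -0.26 (interval -0.66 to 0.14). Erbb3 was lower in KR than in WT in the fasted state and higher in the refed state, with a refed minus fasted value of 0.13 (interval -0.21 to 0.47). Errfi1 was higher in KR in the fasted and lower in the refed state, with a refed minus fasted value of -0.11 (interval -0.36 to 0.14). All 4 counting intervals include 0.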

How the results depend on the processing

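No paired analysis was possible because each group holds 1 library. The direction and 2-fold call of Areg after refeeding held in both genotypes under every alternative. With a pseudocount of 0.1 its log2 difference was -3.47 in WT and -2.98 in KR. Of 64 recomputed ratios of single members 59 moved by less than their counting interval, and the other 5 were these and 3 of Erbb2, all under the smaller pseudocount. That pseudocount also took Gab2 after refeeding in KR past 2-fold, at -1.03, and Fos between genotypes in the refed pair, at 1.28. No called ratio of a named gene changed sign. With a 1.5-fold limit 1 member, Areg, was apart between genotypes in the fasted pair, in place of 0. With a minimum mean FPKM of 5, which leaves 3 members, the median refeeding ratio of members was -0.38 in WT and -0.49 in KR. Of all genes, the 1.5-fold limit called 1925 and 1542 after refeeding in WT and KR, in place of 420 and 278, and 133 and 170 between genotypes in the fasted and refed pairs, in place of 29 and 44. The smaller pseudocount called 687, 478, 62 and 93 in the same order, and the minimum of 5 called 14 and 24 between genotypes. Depth limits Areg in the refed libraries, Btc and Erbb2.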
